A study of Homo sapiens with 96 samples.

Results

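The 34 genes described here encode the enzymes of glycolysis, the transporters of glucose and lactate, the entry of pyruvate into oxidative metabolism, and a few genes that respond to low oxygen. They were taken as a named list, and all 34 are among the 58521 gene symbols measured. No measured value selected the genes, but earlier results of these data were known when the list was made. A second set of libraries below is defined by the level of GAPDH, itself on the list. The cells were HUES64, an established human embryonic stem cell line, collected at day 0 and engineered so that DNMT1, the maintenance DNA methyltransferase, can be knocked out on induction (genotype inducible DNMT1 KO). Every one of the 96 libraries carried these same labels, and they formed 1 group with no control group. The labels contradicted each other on doxycycline, the drug that switches the knockout on: the description of every library had it added, the induction field of every library had it absent. Since the labels name no separate cultures, the wells of 1 plate count as 1 sample, no test between conditions was possible, and every SD below describes the spread over wells of this plate.

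Glycolysis splits glucose into pyruvate, first spending ATP in the preparatory enzymes (hexokinase to triose phosphate isomerase) and then making ATP and NADH in the pay-off enzymes (GAPDH to pyruvate kinase). Pyruvate is then either reduced to lactate, which leaves the cell through monocarboxylate transporters, or oxidised by the pyruvate dehydrogenase complex, which pyruvate dehydrogenase kinases switch off. Human pluripotent stem cells in the primed state are known for a high glycolytic flux, and under low oxygen the factor HIF1 raises the transcription of many of these genes.

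Levels are CPM: each gene's reads as a share of its library's gene reads, put on a common total. Libraries were kept with at least 100000 gene reads, 2000 genes with a read and 1% of gene reads from mitochondrially encoded genes. This left 84 of the 96: 6 fell short of reads or genes, and 6 had enough of both but under 1% mitochondrial reads. Well H4, with 0.677%, lay closest below that limit and well G10, with 1.51%, closest above it. The 84 held 118549 to 1877837 gene reads (median 768161), so that 3 reads, the floor used here, corresponded to between 25.3 and 1.60 CPM. Reads without molecular identifiers are not independent molecules, so the floors and the interval given below cover counting error only. The 10 markers of pluripotent stem cells summed to 66.3 to 5678 CPM (median 3420) in the kept libraries. In the 6 libraries under 1% mitochondrial reads they summed to 57.8 to 193 CPM (median 77.7), and these 6 serve below as the level seen where such RNA was nearly missing. All 10 pluripotency markers had a mean of at least 10 CPM, against 2 of 8 fibroblast, 1 of 6 endoderm, 4 of 6 mesoderm, 5 of 6 neural and 0 of 6 blood markers. The neural list was higher in the 6 libraries (median sum 2202 CPM) than in the 84 (266 CPM), led by PAX6 and MAP2 in both, and its part in the results below was not tested.

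Because HIF1 binds DNA at the letters ACGTG or GCGTG, 4 promoter windows are shown: those of BNIP3 and CA9, the hypoxia genes with the most and the fewest reads, and of LDHA and PGK1, the enzymes that co-varied most with BNIP3. Each is the RefSeq window on GRCh38.p14 from 250 bases before to 50 bases after an annotated start, written 5′ to 3′ on the gene's strand. Capitals mark ACGTG or GCGTG on either strand. Where ACGTG overlaps its own reverse complement by all but 1 base, both strands count, as 2 matches.
BNIP3: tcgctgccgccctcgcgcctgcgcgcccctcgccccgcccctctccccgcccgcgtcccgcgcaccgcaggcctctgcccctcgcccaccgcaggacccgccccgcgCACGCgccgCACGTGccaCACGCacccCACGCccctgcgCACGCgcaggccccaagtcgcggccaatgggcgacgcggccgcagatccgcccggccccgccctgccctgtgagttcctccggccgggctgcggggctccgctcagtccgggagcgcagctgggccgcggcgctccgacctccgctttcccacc
LDHA: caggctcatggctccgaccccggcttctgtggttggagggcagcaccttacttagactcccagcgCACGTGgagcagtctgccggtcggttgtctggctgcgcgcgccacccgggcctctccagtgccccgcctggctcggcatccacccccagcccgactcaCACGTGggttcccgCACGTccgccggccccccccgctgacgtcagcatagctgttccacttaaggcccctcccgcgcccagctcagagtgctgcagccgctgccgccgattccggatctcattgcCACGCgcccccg
PGK1: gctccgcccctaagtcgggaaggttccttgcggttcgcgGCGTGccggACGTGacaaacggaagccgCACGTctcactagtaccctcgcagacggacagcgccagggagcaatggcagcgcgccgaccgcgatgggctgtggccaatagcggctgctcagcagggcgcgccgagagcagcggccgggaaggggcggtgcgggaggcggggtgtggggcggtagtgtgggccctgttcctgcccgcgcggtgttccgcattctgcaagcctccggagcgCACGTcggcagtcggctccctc
CA9: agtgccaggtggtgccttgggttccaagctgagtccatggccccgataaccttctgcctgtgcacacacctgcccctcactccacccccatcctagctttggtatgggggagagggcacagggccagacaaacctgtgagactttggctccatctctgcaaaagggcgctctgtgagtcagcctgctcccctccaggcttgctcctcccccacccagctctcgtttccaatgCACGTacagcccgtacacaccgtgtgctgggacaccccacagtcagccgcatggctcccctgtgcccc
The BNIP3 window lies at chr10:131981874-131982173 on the minus strand and held 6 matches. The LDHA window, 1 of 2 for the gene, lies at chr11:18394313-18394612 on the plus strand and also held 6 matches, and the other LDHA window held 1. PGK1 had 4 matches at chrX:78103998-78104297 and CA9 had 1 match at chr9:35673678-35673977, both on the plus strand. Windows of HK2, BSG and PDHB, not printed, also held 6 matches each. One motif or the other stood in 39 of the 58 windows of the 30 genes with a window (67.2%), and in 17012 of all 35116 windows (48.4%). A match describes the letters and shows neither binding nor response.

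The 34 genes together took 0.144% of the gene reads in the lowest kept library (well C3), 1.46% in the median one and 2.97% in the highest (well H2). The mean was 1.45% ± 0.628 (SD, n = 84). In the 6 libraries under 1% mitochondrial reads the sum was 0.101% to 0.431% (median 0.281%), which overlaps the lowest of the kept libraries. The 6 were not empty of these genes: well H4 had 1178 CPM of PGK1, 874 of ENO1 and 341 of LDHB, and well A4 had 931 of TPI1. Of the 34 genes, 32 had a mean of at least 10 CPM, where 15.4% of all symbols did. A read was found in at least 50% of the libraries for 33 of the 34, where 21.2% of all symbols reached this, and CA9 was the exception. ALDOA, LDHB, SLC16A1 and SLC16A3 had a read in every kept library. The reads were concentrated: LDHB alone held 23.6% of the reads of the 34 genes in the kept libraries, and LDHB, PGK1, GAPDH, TPI1 and ENO1 held 54.96%.

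**Figure D1:**
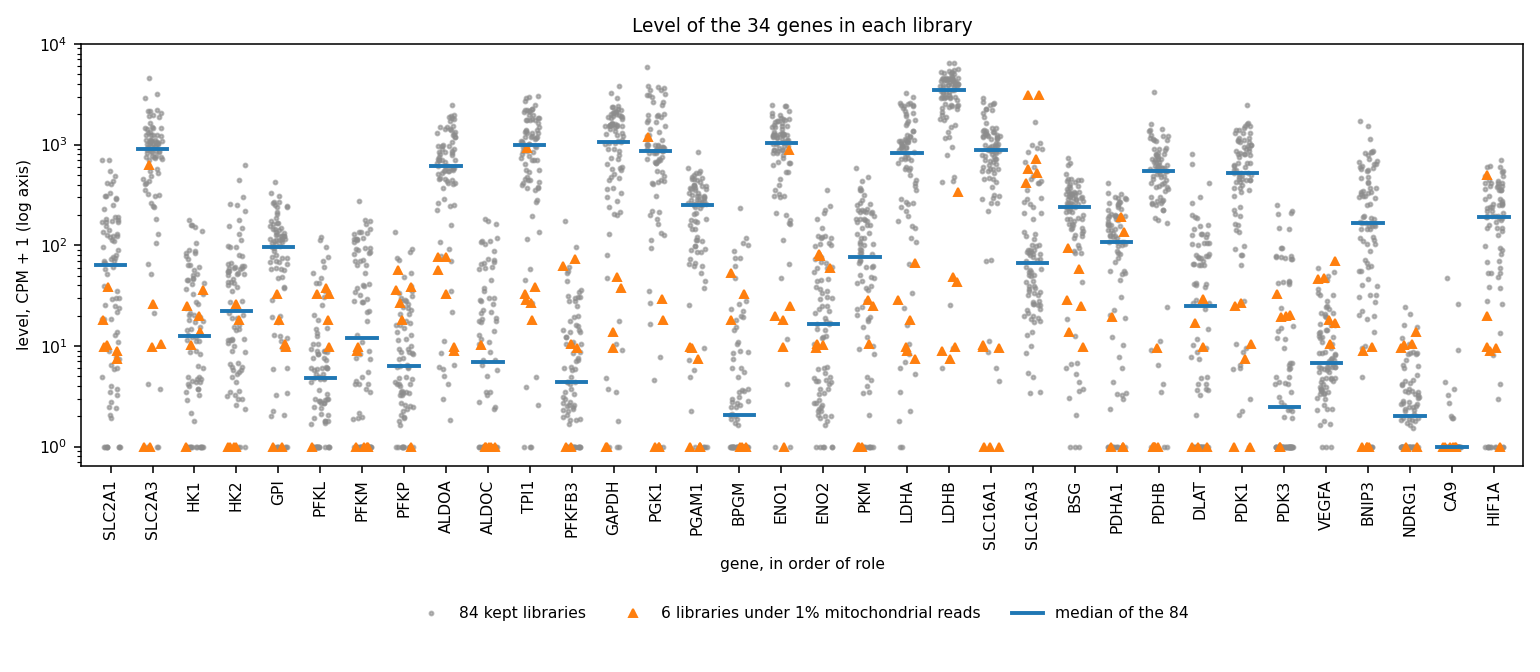
Level of each of the 34 genes (CPM + 1, log axis) in every library, in order of role; grey points are the 84 kept libraries, blue bars their medians, and orange triangles the 6 libraries under 1% mitochondrial reads. LDHB has the highest median (3477 CPM), CA9 lies at 0 in all but 10 libraries, and all 6 triangles lie above the blue bar for SLC16A3 and VEGFA.

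Per kilobase of exon, which allows genes to be compared, LDHB led the list with a mean of 1110.2 ± 503 CPM per kb (SD, n = 84), and it was the highest of the 34 in 75 of the 84 libraries. TPI1 followed with 398 ± 289, GAPDH with 376 ± 289, PGK1 with 209.7 ± 207, ENO1 with 195 ± 116, SLC16A1 with 184 ± 122 and ALDOA with 183 ± 144 CPM per kb. After LDHB, neighbours in this order differed by less than their SDs. GAPDH is counted too low in this order: reads that overlap a gene on each strand were left out of the strandless column used here, and the sum of the 2 strand columns held 1.84 times as many GAPDH reads (159839 against 86661). With that sum GAPDH stood at 632 CPM per kb, the next after LDHB at 1005. The same sum was 1.83 times the strandless count for ALDOC, 1.40 times for PDHB and 1.21 times for SLC16A3, and these 4 genes each overlap an annotated gene on the opposite strand. Sequence shared with other genes can lower further levels in this order. Of all 50-base windows, 48.09% of those of ALDOA, 29.45% of LDHB, 17.69% of GAPDH and 12.61% of TPI1 also stood in another gene's transcripts. The places of these genes, of ALDOA above all, are uncertain to that extent. The order also depends on the length used. With the longest transcript as the length, LDHB (2153 CPM per kb), TPI1 (609) and GAPDH (598) still came first. ENO1 (403) and LDHA (386) then passed PGK1 (237), while LDHA had 150 CPM per kb of exon.

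Glucose entry was led by SLC2A3 (the glucose transporter GLUT3). It ranged from 0 to 4543 CPM (well D7), with a median of 895, a mean of 961 ± 761 (SD, n = 84) and a read in 80 libraries. SLC2A1 (GLUT1), the widespread transporter, ranged from 0 to 702 CPM with a median of 63.1. Both stood above the 6 libraries under 1% mitochondrial reads, whose medians were 9.06 and 8.92 CPM, although 1 of those 6 had 626 CPM of SLC2A3. Per kilobase, SLC2A3 made up 86.5% of the pair, and it exceeded SLC2A1 in 75 of the 78 libraries with at least 10 reads in the family.

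Among the preparatory enzymes, TPI1, ALDOA and GPI were the most read. TPI1 (triose phosphate isomerase) ran from 0 to 3008 CPM with a median of 981, and ALDOA (aldolase A, which cleaves the fructose bisphosphate) from 0.841 to 2497 CPM with a median of 609. Both peaked in well H2, the library with the highest sum. GPI (glucose phosphate isomerase) had a median of 94.2 CPM and a highest value of 422 CPM. The hexokinases had fewer reads: HK2 had a mean of 57.1 ± 97.5 CPM and HK1 29.7 ± 41.3 CPM (SD, n = 84). Per kilobase of exon, HK2 (9.42 CPM per kb) and GPI (9.39) were nearly equal. With the longest transcript as the length they were not, GPI standing at 23.1 and HK2 at 9.89. PFKM, PFKP and PFKL, the phosphofructokinase subunits, had means of 42.9, 14.9 and 12.9 CPM. The means of PFKL and PFKP did not exceed the medians of the libraries under 1% mitochondrial reads, 24.4 and 30.1 CPM. Single libraries did: PFKL reached 119 CPM (well H10) and PFKP 136 CPM (well H11), and 10 and 5 of the 84 lay above the highest of the 6 (36.8 and 55.9 CPM). ALDOC, the brain aldolase, had a mean of 25.9 CPM and a read in 51 of the 84 libraries. PFKFB3, which makes the sugar bisphosphate that activates phosphofructokinase, had a mean of 12.4 CPM, a median of 3.36 and a highest value of 174 CPM (well A3), against a median of 8.96 CPM in the 6 libraries.

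Among the pay-off enzymes, GAPDH (the NADH-producing step) ranged from 0 to 3844 CPM with a median of 1062 and a mean of 1121 ± 860 (SD, n = 84). PGK1 (phosphoglycerate kinase, an ATP-producing step) ranged from 0 to 5860.3 CPM with a median of 866, and both were highest in well H2. ENO1 (enolase) had the lowest ratio of SD to mean of the pay-off enzymes, 1026 ± 614 CPM, and ran from 0 to 2466 CPM. PGAM1 (phosphoglycerate mutase) had a median of 250.3 CPM and PKM (pyruvate kinase of muscle and of most growing cells) one of 75.1 CPM. ENO2, the neuronal enolase, had a mean of 42.5 CPM and a median of 15.5, against a median of 33.6 in the 6 libraries under 1% mitochondrial reads. BPGM, which makes the bisphosphoglycerate of red blood cells, had a median of 1.05 CPM, and its highest library, well H3, had 234 CPM.

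Lactate dehydrogenase joins pyruvate and lactate, from an LDHA subunit typical of muscle and an LDHB subunit typical of heart. LDHB ranged from 5.10 to 6450 CPM (well B11) with a median of 3477 and a mean of 3312 ± 1502 (SD, n = 84). LDHA ranged from 0 to 3272 CPM (well E4) with a median of 823 and a mean of 932 ± 830. Per kilobase LDHB was higher than LDHA in 75 of the 77 libraries with at least 3 reads of each gene. The median log2 ratio of LDHB to LDHA per kilobase was 3.12 (SD 2.15), an 8.72-fold excess, from -6.01 in well E4 to 9.98 in well D4. The fold depends on the lengths used, being 4.19 with no length correction and 11.9 with lengths found in no other gene. Well E4 was the exception with the full opposite pattern, 3272 CPM of LDHA and 24.5 CPM of LDHB.

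Lactate leaves through SLC16A1 (MCT1) and SLC16A3 (MCT4), which need the chaperone BSG (basigin) to reach the membrane. SLC16A1 ranged from 3.47 to 2917 CPM with a median of 881, and the 6 libraries under 1% mitochondrial reads had 0 to 9.20 CPM. BSG had a median of 239 CPM, from 0 to 739. SLC16A3 differed from SLC16A1 and BSG in 2 ways. The first was shared with other genes of the list, and the second in part, by medians, as given further below. The median of SLC16A3 was higher in the 6 libraries with hardly any mitochondrial reads, 646 CPM (414 to 3129), than in the 84 kept libraries, 64.9 CPM (2.41 to 1655). The 2 ranges overlap. It also followed the plate: 115 to 1655 CPM (median 420.4, n = 22) in rows F and G, against 2.41 to 270.2 CPM (median 38.4, n = 62) in the other rows. All 22 libraries of rows F and G lay above the upper quartile of the other rows (78.6 CPM), and 16 of them lay above all 62.

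**Figure D2:**
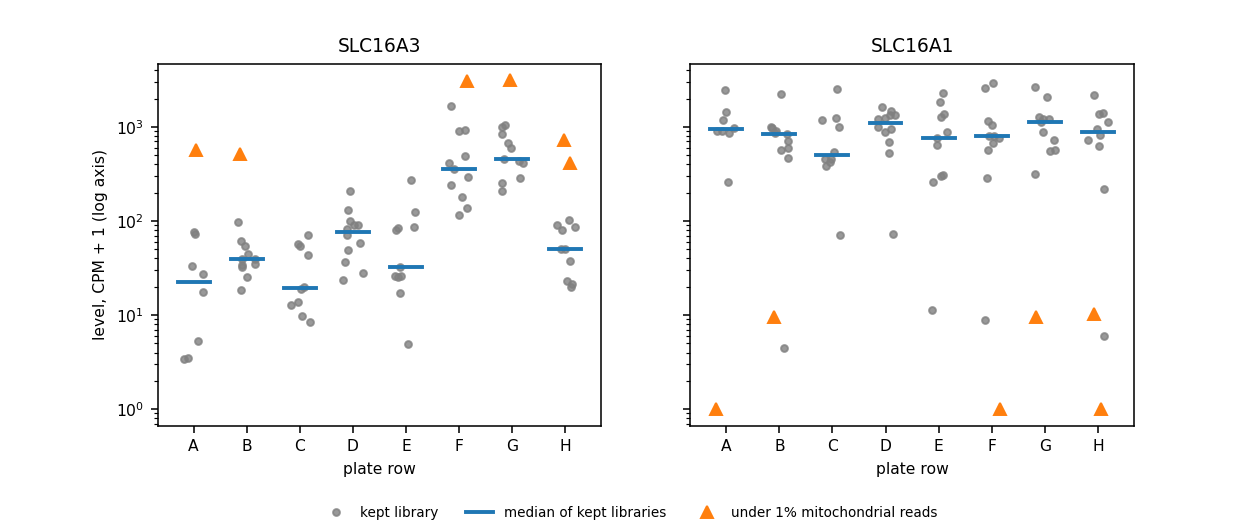
Level of SLC16A3 and SLC16A1 (CPM + 1, log axis) by plate row; grey points are kept libraries, blue bars row medians, and orange triangles libraries under 1% mitochondrial reads. SLC16A3 is highest in rows F (median 355 CPM) and G (455 CPM), in kept and in left-out libraries, while SLC16A1 shows no such step.

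The mean of SLC16A3 was 540.1 CPM in rows F and G and 52.8 CPM elsewhere, a ratio of 10.2, and among the 32 genes whose mean reached 10 CPM the next ratio was 1.54, of ENO2. The lowest ratios were 0.350 for ALDOC, 0.472 for PKM and 0.564 for HK1. By medians, other genes were higher in rows F and G too, among them ENO2 (33.2 against 4.996 CPM), VEGFA (13.3 against 5.07) and PFKFB3 (11.96 against 1.66). So were PFKP (11.1 against 3.17) and BPGM (7.63 against 0). Of the 22 libraries there, 21 lay above the other rows' median for PFKP, 20 each for ENO2, PFKFB3 and BPGM, and 18 for VEGFA. Further genes had lower medians there, as PKM (36.6 against 95.96 CPM). The 2 libraries under 1% mitochondrial reads in rows F and G had 3109 and 3129 CPM of SLC16A3, and the 4 in other rows had 414 to 720.2 CPM. Rows F and G had fewer gene reads (median 498244 against 889048) and more genes with a read (median 16155 against 13345.5), and over all 84 libraries SLC16A3 had a rho of -0.66 with gene reads; the part of these in the step was not tested. The share of SLC16A1 in the transporter pair was 77.5% per kilobase in rows F and G and 96.8% elsewhere. Over all 84 libraries it was 90.2%, and in the 6 libraries under 1% mitochondrial reads 0.524%.

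At the entry to the mitochondrial route, PDK1, a kinase that switches pyruvate dehydrogenase off, ranged from 0 to 2481 CPM with a median of 517 and a mean of 625 ± 501 (SD, n = 84). PDHB, the beta subunit of the first enzyme of the complex, ranged from 0 to 3297 CPM (well E3) with a median of 544. Its partner subunit PDHA1 was lower, with a mean of 116 CPM, and PDHA1 per kilobase stood at 25.9 against 125 for PDHB. DLAT, the acetyltransferase core, had a mean of 70.4 ± 129 CPM, 13.6% of it from well E4. PDK3 had a mean of 26.6 CPM, a median of 1.48 and a median of 18.7 CPM in the 6 libraries under 1% mitochondrial reads.

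The hypoxia genes were unequal. BNIP3, a mitophagy receptor, ranged from 0 to 1707 CPM (well C4) with a median of 165 and a mean of 299 ± 335 (SD, n = 84), and its level in the 6 libraries under 1% mitochondrial reads was 0 to 8.64 CPM. HIF1A, the oxygen-regulated subunit of the factor, ranged from 0 to 697 CPM with a median of 189, against a median of 8.54 CPM and a highest value of 497 CPM in the 6 libraries. VEGFA, the growth factor for vessels, had a median of 5.69 CPM and reached 58.7 CPM, against 9.48 to 69.1 CPM (median 30.9) in the 6 libraries. NDRG1 (a stress-induced protein of differentiating cells) had a mean of 2.63 CPM, against a median of 8.82 CPM in the 6 libraries. CA9 (carbonic anhydrase IX, a surface enzyme used as a hypoxia marker) had a read in 10 of 84 libraries (11.9%, exact Clopper-Pearson 95% interval 5.86 to 20.8), and 50.4% of its summed CPM came from well G6 with 46.4 CPM. No read of CA9 was found in the 6 libraries, whose pooled floor of 3 reads was 4.11 CPM. BNIP3 and HIF1A thus had means above the median of those libraries and VEGFA and NDRG1 means below it.

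Over the list, 23 of the 33 genes read in 50% or more of the libraries had a mean more than 5 times the median of the libraries under 1% mitochondrial reads, where 40.5% of all 12387 such genes did. PFKL, PFKP, SLC16A3, VEGFA and NDRG1 had a mean at or below that median, which holds for 40.8% of such genes. HK1, PFKFB3, BPGM, ENO2 and PDK3 lay between by their means, but their medians over the 84 libraries also lay below it, as for HK1 with 11.6 against 15.9 CPM. By medians 10 of the 33 genes were thus below the 6 libraries, where 58.9% of such genes were. How far these reads came from the cell in the well was not tested.

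**Figure D3:**
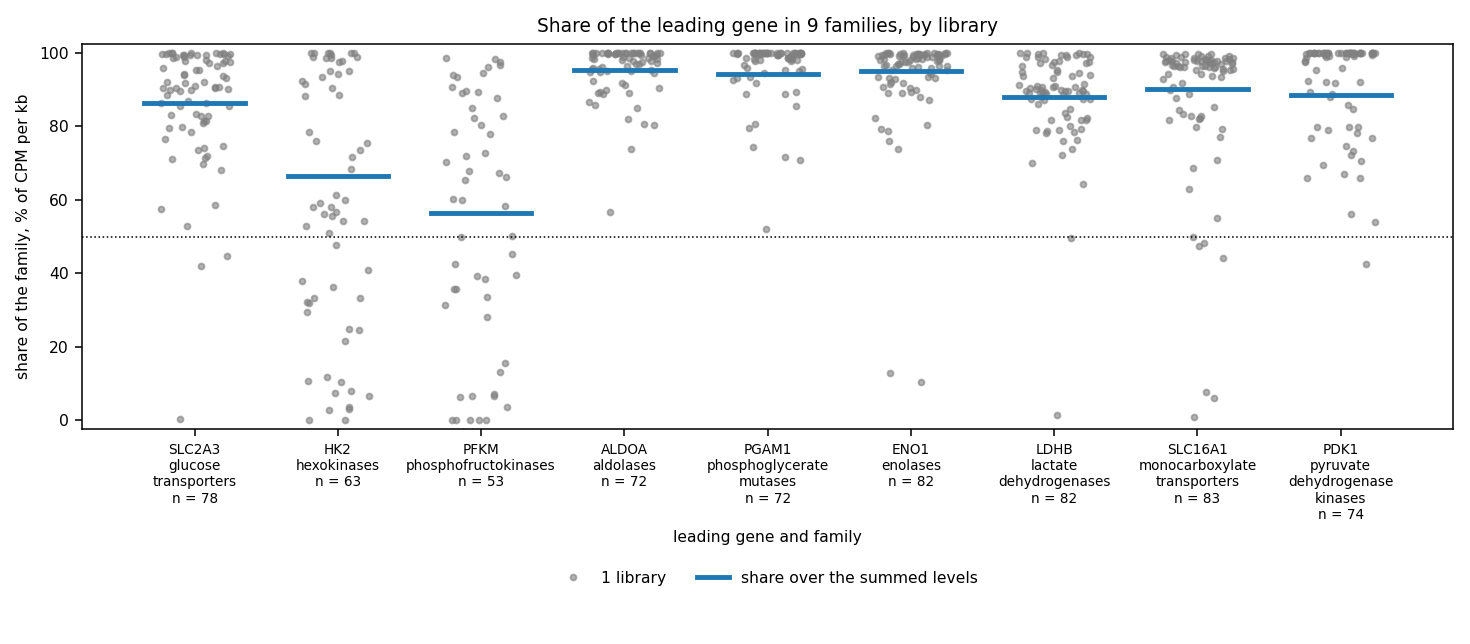
Share of the leading gene in its family (percent of CPM per kb) in each library with at least 10 reads in the family, for 9 families; grey points are libraries, blue bars the share over the summed levels, and the dotted line marks 50%. ALDOA, PGAM1 and ENO1 stay near the top in nearly every library, while HK2 and PFKM cover the whole range from 0 to near 100.

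In the 9 families the use of isoenzymes fell into 2 kinds. ALDOA made up 95.4% of the aldolases per kilobase, PGAM1 94.3% of the mutases, ENO1 95.1% of the enolases, SLC16A1 90.2% of the lactate transporters, PDK1 88.7% of the kinases, LDHB 88.1% of the lactate dehydrogenases and SLC2A3 86.5% of the glucose transporters. ALDOA and PGAM1 led in all 72 libraries with at least 10 reads in their family, ENO1 and LDHB each in 80 of 82, SLC16A1 in 77 of 83 and PDK1 in 73 of 74. The hexokinases and phosphofructokinases had no such order. HK2 held 66.6% over the summed levels, but led in 40 of 63 libraries, with a lowest share of 0 and a highest of 100 (median 58.1%). PFKM held 56.4%, PFKP 29.6% and PFKL 13.9%, and PFKM had over 50% of the family in 31 of 53 libraries. HK1 and HK2 were close to unrelated over the libraries (Spearman's rho 0.04), and few reads per library stand behind both families. With the longest transcript as the length, HK2 held 57.1%, and no family changed its leading gene under any alternative.

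Co-variation was described by Spearman's rho over the 84 libraries, for the 33 genes read in 50% or more of them. Libraries share the plate, and levels share each library's total, so rho describes these wells and carries no p-value. The median over the 528 pairs was 0.23, and 0.06 over all pairs of the 12387 genes past the same filter. Over the 153 pairs of the 18 core enzymes (hexokinase to lactate dehydrogenase) it was 0.30. The 10 core enzymes with a mean of at least 100 CPM had a median of 0.52 over 45 pairs, from 0.27 to 0.82, where all genes at that level had 0.10. The closest pairs were ALDOA with GAPDH (0.82), GAPDH with ENO1 (0.79), TPI1 with PGK1 (0.77) and TPI1 with GAPDH (0.76). All of these are steps from aldolase to enolase.

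**Figure D4:**
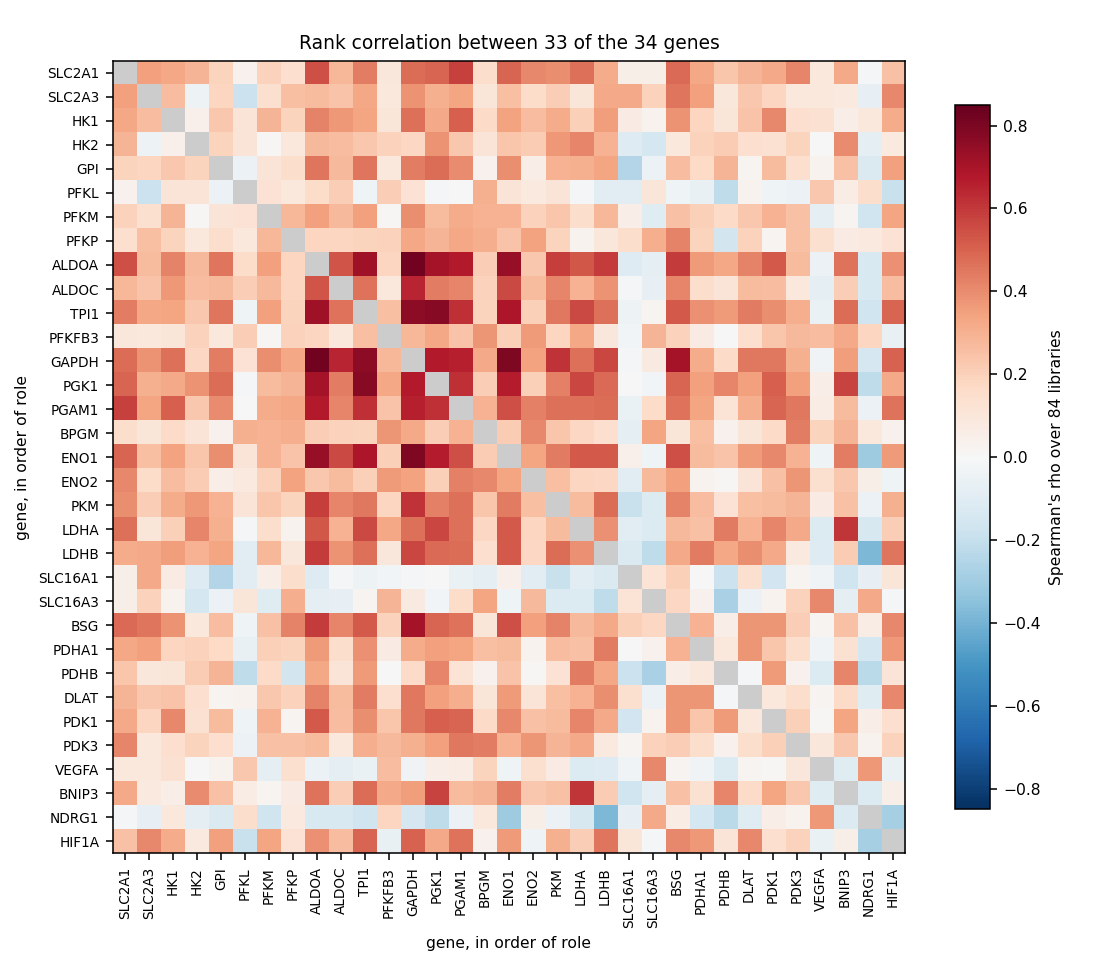
Spearman's rho over 84 libraries between 33 of the 34 genes in order of role (CA9, with a read in 10 libraries, is left out; the diagonal is grey). ALDOA, TPI1, GAPDH, PGK1, PGAM1 and ENO1 form the darkest block, while SLC16A1, SLC16A3, VEGFA and NDRG1 are pale or blue along most of their rows.

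BSG joined the block, with a rho of 0.70 with GAPDH. The lactate transporters did not: the median rho with the core enzymes was -0.07 for SLC16A1 and -0.03 for SLC16A3. Among the hypoxia genes the median rho with the core enzymes was 0.32 for HIF1A, 0.26 for BNIP3, 0.02 for VEGFA and -0.12 for NDRG1. BNIP3 was nearest to LDHA (0.60) and PGK1 (0.57), whose promoters were chosen for printing by this co-variation, and HIF1A to GAPDH (0.50). VEGFA went with SLC16A3 (0.41) and NDRG1 (0.37), both of which stood at or below the libraries under 1% mitochondrial reads. With ranks adjusted for gene reads and genes detected, VEGFA with SLC16A3 turned to -0.14, while LDHA with BNIP3 was at 0.59 and the 10 abundant core enzymes at a median of 0.45. The lowest pair of all was LDHB with NDRG1 (-0.38).

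A core score, the mean z-score of log2(CPM + 1) over the 18 core enzymes, moved with other measures of the library. Its rho was 0.42 with gene reads, 0.47 with genes detected, -0.52 with the share of reads on 5 loci that led the libraries with few mitochondrial reads (FLG-AS1, RP11-217O12.1, PDE4A, KCNJ2 and DGCR14) and -0.73 with the ratio between 2 mitochondrial messengers (MT-CO2 over MT-CO1, log2). It was positive with MT-CO1 itself (0.29) and negative with MT-CO2 (-0.81). After the ranks were adjusted for the ratio, the median rho fell to 0.10 over all pairs, 0.17 over the core and 0.41 over the 10 abundant core enzymes, against 0.02 over all genes. LDHA with BNIP3 stood at 0.57 and ALDOA with GAPDH at 0.70 after that adjustment. The part of the ratio in the shared variation was otherwise not tested.

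The libraries with GAPDH under 50 CPM are a set apart by definition: 12 of 84, in wells A3, A5, A12, C3, C4, C5, C8, C12, E4, F2, F3 and F12. Well C5 (45.8 CPM) lay closest below the limit and well F7 (79.5 CPM) closest above. Their median log2 of MT-CO2 over MT-CO1 was 1.77 (from -0.38 to 2.81), against -1.87 in the other 72 (highest 1.41), and the ranges overlap in part. Low GAPDH did not go with low reads of every enzyme. Well F3 had 2438 CPM of ENO1 with 8.44 of LDHB, well E4 had 833 of TPI1 and 3272 of LDHA with 0 of ENO1, well A12 had 2345 of LDHB with 1.61 of TPI1, and well F2 had 2481 of LDHA with 0 of PGK1. In the 72 libraries with at least 50 CPM of GAPDH the 34 genes took 1.58% ± 0.559 of the gene reads (SD, n = 72), a sum that includes GAPDH. Without GAPDH the other 33 genes took 1.45% ± 0.501 there and 0.611% ± 0.272 in the 12. Over the 72 libraries the median rho was 0.16 over all pairs, 0.27 over the core and 0.46 over the 10 abundant core enzymes. LDHA with BNIP3 was at 0.62 in the same 72, and the core score's rho with the mitochondrial ratio was -0.61. Every family kept its leading gene, with shares from 54.8% (PFKM) to 95.5% (ENO1).

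**Figure D5:**
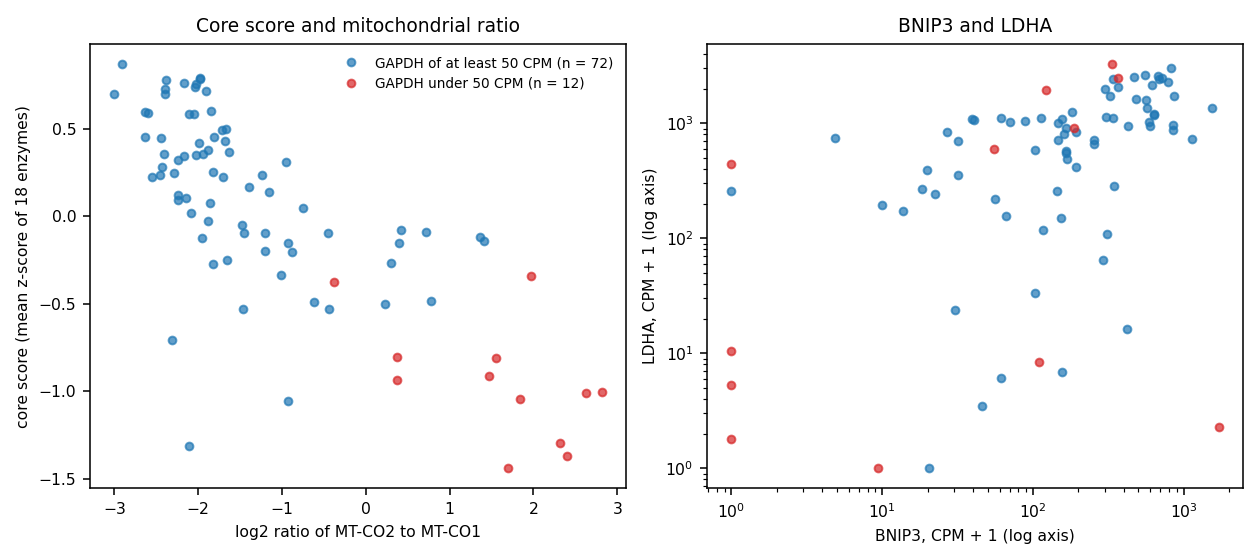
Left, the core score (mean z-score of 18 enzymes) against MT-CO2 over MT-CO1 (log2) in 84 libraries; right, LDHA against BNIP3 (CPM + 1, log axes). Blue points have at least 50 CPM of GAPDH (n = 72), red points less (n = 12); red points sit at high ratios and low scores on the left, GAPDH being 1 of the 18 enzymes of the score (without it their median is -0.94, against 0.21 for the blue points), and the pair rises together on the right (rho 0.60), with well C4 far below at 1707 CPM of BNIP3 and 1.28 of LDHA.

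Outside the list, the 10 genes with the highest rho with the core score were AP2B1 (an adaptor of clathrin vesicles, 0.81), HMGA1 (a chromatin protein, 0.77), PPIAP22, TUBA1B, TPI1P1, RPS3, RPL10, TUBA1C, EIF5A and CTC-575D19.1 (0.73). The median over the other 12354 genes was 0.16. After adjustment for MT-CO2 to MT-CO1 the 10 stood at 0.51 to 0.62. TPI1P1 is a processed pseudogene of TPI1 with 1689 reads and a rho of 0.91 with TPI1, and since reads of a gene and its copy can be split between them, both levels are uncertain. The same holds for GAPDH, whose 60 pseudogenes held 3385 reads (3.91% of those of GAPDH, led by GAPDHP61), for BNIP3, whose 39 held 583 (2.72%, led by BNIP3P1), and for LDHA, whose 6 held 399 (0.586%, led by LDHAP4).

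Spread over the libraries was set against a trend of log2 CV2 (squared coefficient of variation) on log2 mean, fitted to all genes. Of the 32 genes that could be fitted, 2, PGK1 (an excess of 1.35) and SLC16A3 (1.18), were at least 1 above the trend on the log2 scale, where 13.5% of all genes were. The median excess was 0.00 for the list and for all genes. VEGFA had the largest distance below the trend among these 32 (-2.11). Without each gene's highest library the count was 3, with LDHA at 1.13, where 6.13% of all genes passed. The count depends on scaling, being 1 with TMM scaling and 0 with scran size factors.

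Of the pathway genes outside the 34, 2 of 14 tissue-restricted isoenzymes had a mean of at least 10 CPM, a share near the 15.4% of all symbols, and 1 of 14 had no read. These were PDHA2, the testis form of PDHA1, with 27.2 ± 40.6 CPM, and ENO3, the muscle enolase, with 12.2 ± 32.2 CPM; both stood below the libraries under 1% mitochondrial reads (medians 121 and 35.3 CPM). The pentose phosphate pathway, which branches from glycolysis to make NADPH and ribose, had 6 of 7 at that level, led by TKT (162 ± 118 CPM), PGD (101 ± 146), TALDO1 (86.8 ± 99.2) and RPE (64.6 ± 88.5). Of the rest of the pyruvate dehydrogenase complex and pyruvate carrier 7 of 9 passed, led by DLD (199 ± 185), PDHX (56.4 ± 108), PDP2 (52.4 ± 59.7) and MPC2 (40.95 ± 96.0). Among the hypoxia factors and oxygen sensors 6 of 8 passed, led by HIF1AN (39.4 ± 62.6), ARNT (29.2 ± 38.1), VHL (26.8 ± 57.5) and EGLN1 (20.3 ± 36.7). The 8 summed to a median of 117 CPM in the kept libraries and 121 CPM in the 6. Of 14 further hypoxia-responsive genes 10 passed, led by PFKFB4, which is also in the next list, and BNIP3L (173 ± 208), PLOD2 (133 ± 217) and P4HA1 (109.6 ± 218), the last 3 with a median of 0 in the 6 libraries. Of 10 regulators 5 passed, led by PFKFB4 (604 ± 624), TIGAR (107 ± 171), ADPGK (36.3 ± 90.1) and PFKFB2 (23.6 ± 46.1). PFKFB4, a relative of PFKFB3 that hypoxia raises, stood at 2166 to 7943 CPM in the 6 libraries under 1% mitochondrial reads, well above its mean in the kept ones.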

How the data were processed

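The 34 genes, the other lists and the rule for the libraries were chosen with earlier results of these data known. Poly(A) RNA of 96 wells was read with SMART-seq2 and Nextera XT libraries, per the labels' protocols. STAR 2.7.3a and FastQC, with hg38 and GRCh38.p2 as builds, are named per the submitters' processing notes. The annotation release is not given in the sources used here. The authors deposited raw counts of reads per gene symbol in 3 columns (strandless, forward and reverse) under 4 summary lines. Those lines (unmapped, multi-mapped, outside genes, ambiguous) held 88.8% of all reads and stayed out of library sizes. The strandless column was used, as CPM. A read mapped to several places or overlapping several genes was in no gene's count, so pseudogenes and opposite-strand genes lower the levels of the genes they resemble or overlap. Library depth ran from 118549 to 1877837 gene reads over the 84 libraries kept.

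Exon lengths (union of exons), pseudogenes and overlaps came from GENCODE 29 on GRCh38, which need not be the authors' annotation, and promoters from RefSeq on GRCh38.p14. Isoenzyme shares used libraries with at least 10 reads in the family, and the LDHB to LDHA ratio those with at least 3 reads of each. Adjusted rho used ranks with the covariate's ranks regressed out. The variability trend was a lowess fit (span 0.5) over genes whose mean reached 10 CPM and that were read in 10% of libraries or more. The fit was also run on simulated libraries, but that outcome is not given here and lends no support to the counts above. With 1 group there was no test and no p-value, and no replicates to pair. Named genes are the 34 members, up to 4 per other list with the highest mean of at least 10 CPM, the 10 genes nearest the core score and the top pseudogene of each of the 4 members with most pseudogene reads; markers, mitochondrial genes and the 5 loci were named beside these. For 16 wells in columns 1 and 12 the title and the table's name gave different columns, and the titles were followed. Tools were Python 3.11.15 with numpy 2.4.6, pandas 2.3.3, scipy 1.17.1, statsmodels 0.14.6 and matplotlib 3.10.9, and R 4.3.3 with edgeR 4.0.16 and scran 1.30.0 for scaling factors only.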

Additional observations from a re-analysis of the deposited data

Results flagged for a closer look

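Data outside the main measurement held reads of these genes. In the 6 libraries under 1% mitochondrial reads, pooled to 729171 gene reads, 27 of the 34 genes had more than 3 reads, led by SLC16A3 (1022 reads), TPI1 (161) and PGK1 (133). Single wells held most of the last 2: without well A4 the pool had 16 reads of TPI1, and without well H4 it had 5 of PGK1. In the 6 libraries short of reads or genes, pooled to 283258 gene reads, 19 of the 34 had more than 3 reads, led by SLC16A3 (78 reads), PDK3 (25), ALDOA (21) and BSG (13). No control wells are named in the labels, so the limit here is the 3 reads that a count of 0 allows. SLC16A3 led both pools among the 34 genes. The share of all genes with more than 3 reads in each pool was not computed, so neither count sets the list apart.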

How the results depend on the processing

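All wells form 1 group, so nothing was tested and no paired analysis was possible because all libraries form 1 group. Over 17 results there were 248 alternatives (scaling, strand column, thresholds, depth, length, plate rows, pseudogenes). Of these, 243 moved a count by at most 1.5 times or another value by less than 1 SD over libraries or gene pairs. None changed a leading isoenzyme. Some could not move: a scaling factor per library cancels in the LDHB to LDHA ratio and cannot change which genes have a read. The SD is also a wide limit, 34.2 percentage points for the HK2 share and 2.15 for the LDHB to LDHA log2 ratio. For the median rho too, where single pairs spread widely, that criterion says little. The median rho was 0.23 over all pairs as reported, from 0.10 to 0.25 under the alternatives, and 0.30 over the core, from 0.17 to 0.35. The count of genes above the variability threshold was the exception, with 2 as reported. It was 3 with at least 50 CPM of GAPDH and 3 without each gene's highest library, both at the limit of 1.5 times. Beyond the limit it was 1 with TMM scaling, 0 with scran size factors and 1 in rows F and G alone. It was also 1 in the forward-strand column and 1 in the sum of the strand columns. The cause was not tested. The sum of the strand columns, the lengths found in no other gene, the longest transcript for the LDHB to LDHA ratio and the adjustment for MT-CO2 to MT-CO1 were chosen after seeing the data. The summed level ranged from 13669 to 16035 CPM, and the LDHB to LDHA log2 ratio from 2.07 without length correction to 3.57 with lengths found in no other gene. The median rho between core enzymes and hypoxia genes, 0.09 as reported, ranged from 0.03 with the adjustment for MT-CO2 to MT-CO1 to 0.22 after thinning to 100000 gene reads, where 27 genes had a read in at least 50% of libraries. SLC16A1 held 77.5% to 96.8% of the lactate transporters, with the plate rows at both ends. Depth limits the genes under about 10 CPM: 3 reads are 25.3 CPM in the shallowest library.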
